A study of Mus musculus with 21 samples.

Results

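Clade B serpins are protease inhibitors that lack a classical secretion signal and work mostly inside the cell that makes them. A serpin offers its target protease a bait, the reactive centre loop near the carboxyl end of the protein. Cleavage of the loop refolds the serpin and traps the protease. In the epidermis the family is known for holding in check the proteases that act during cornification, wounding and inflammation. The 10 genes described here are Serpinb1a, Serpinb2, Serpinb3a, Serpinb3b, Serpinb3c, Serpinb3d, Serpinb5, Serpinb6c, Serpinb11 and Serpinb12. They were taken by gene name from a table of 23713 genes, all 10 were in it, and all 10 passed the filter on low counts in each of the 3 models. The table holds 11 other clade B serpins.

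RNA from keratinocytes of mouse tail skin was sequenced in bulk from 3 models of basal cell carcinoma (BCC), a skin tumour driven by Hedgehog signalling, each with its own mice without tumour (Con). SmoM2 mice, named for an activated form of the Hedgehog transducer Smoothened, were sampled 29 days after tumour induction, Gnas-eKO mice, named for loss of Gnas (the stimulatory G protein alpha subunit), at 42 days, and PKI mice, named for an inhibitor of protein kinase A, at 57 days. Each model had 3 Con and 4 BCC libraries, 21 in all, and Con mice were sampled with the BCC mice of their model. The labels give no strain, age, Cre line, promoter or control genotype, and they do not say whether libraries of a group came from separate animals. The p-values therefore measure the spread between these libraries, which may be technical. Batch (A, B or C), day and model coincide and cannot be told apart. In the column names, SmoM2 BCC libraries carry another name prefix than SmoM2 Con libraries, whose prefix is shared with the Gnas-eKO libraries, and what it stands for is not given.

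Library totals ran from 16645858 to 22251132 counts. A floor of 3 counts came to at most 0.189 CPM (each count divided by its library's size, which was scaled by the trimmed mean of M values, and brought to a common total), a value that covers counting error only. Gnas was at 172 to 178 CPM in Gnas-eKO Con and at 51.1 to 115 CPM in Gnas-eKO BCC. Smo was at 93.7 to 111 CPM in SmoM2 Con and at 283 to 312 CPM in SmoM2 BCC. A higher Smo in BCC was not particular to SmoM2: it was at 106 to 113 and 150 to 234 CPM in Gnas-eKO, and at 98.1 to 113 and 138 to 161 CPM in PKI. Gnas was at 181 to 193 CPM in SmoM2 Con and 285 to 311 CPM in SmoM2 BCC, and at 234 to 266 and 276 to 313 CPM in PKI. Within Gnas-eKO BCC, replicates 1 to 4 had Gnas at 115, 89.5, 51.1 and 65.6 CPM and summed Serpinb3 levels of 175, 224, 624 and 123 CPM. Replicate 3 thus had the lowest Gnas and the highest sum, and replicate 4 the next lowest Gnas and the lowest sum. A relation between the levels was not tested. Results that rest on 1 library are also given without it. The 7 basal keratinocyte markers, Krt5 and Krt14 among them, were all detected in every group, with a summed level of at least 16608 CPM in any library.

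Serpinb3a, Serpinb3b, Serpinb3c and Serpinb3d are close copies, mouse relatives of the human squamous cell carcinoma antigens, which inhibit cysteine cathepsins or chymotrypsin-like serine proteases. Their sequences are shown first because 2 things turn on them: whether reads of the copies can be separated, and which part of the protein the copies do not share. Over the coding sequence (GENCODE M21, build GRCm38), Serpinb3a and Serpinb3b were identical at 93.1% of aligned bases, Serpinb3b and Serpinb3c at 93.4%, and Serpinb3a and Serpinb3c at 91.5%. Serpinb3d was identical to the other copies at 86.8% to 89.2%, and every other pair among the 10 genes was at 57.5% to 64.3%. Of all 50-base windows of the transcripts, 6.51% of those of Serpinb3a, 14.3% of Serpinb3b, 9.44% of Serpinb3c and 4.97% of Serpinb3d also occur in another of the 10 genes, against 0% for the other 6. Windows were sought only among the 10 genes, not in other clade B serpins such as Serpinb1c or Serpinb6a. The 0% says nothing about sequence shared with those. The differences between the Serpinb3 copies are not spread evenly. The 60 alignment columns with the most differences had 36 variable columns, all in the last exon, at codons 341 to 361 of 387 (341 to 360 of 386 in Serpinb3c). The 60 columns with the fewest differences had 3 variable ones, at codons 318 to 338. The most variable stretch, minus strand, with columns that differ among the copies in capitals, reads as follows:
Serpinb3a (chr1:107046098-107046157): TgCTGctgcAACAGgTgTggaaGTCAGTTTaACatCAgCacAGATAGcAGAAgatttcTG
Serpinb3b (chr1:107154451-107154510): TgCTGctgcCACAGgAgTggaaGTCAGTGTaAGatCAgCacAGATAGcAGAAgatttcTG
Serpinb3c (chr1:107271711-107271767): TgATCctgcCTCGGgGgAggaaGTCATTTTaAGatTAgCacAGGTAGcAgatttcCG
Serpinb3d (chr1:107078275-107078334): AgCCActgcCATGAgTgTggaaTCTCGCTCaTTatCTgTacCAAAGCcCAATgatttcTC

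The start regions of the copies were also compared. RefSeq promoters (build GRCm38.p6) of 300 bases were available for 9 of the 10 genes, Serpinb1a having no entry. Those of Serpinb3b and Serpinb3c were identical at 96.2% of aligned bases, those of Serpinb3a and Serpinb3b at 93.1%, and that of Serpinb3d was at 56% to 56.5% with the other copies. The motif TATAAA (or TTTATA, the same on the other strand) is in each copy, and the bases around it are alike in the first 3. The 120 bases before each start site, on the minus strand, are shown with the motif in capitals:
Serpinb3a (chr1:107052304-107052423): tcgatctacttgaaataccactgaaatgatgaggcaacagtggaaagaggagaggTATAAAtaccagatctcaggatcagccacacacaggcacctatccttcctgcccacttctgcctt
Serpinb3b (chr1:107161115-107161234): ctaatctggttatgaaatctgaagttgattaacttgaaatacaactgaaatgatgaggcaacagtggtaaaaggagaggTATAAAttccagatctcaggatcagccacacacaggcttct
Serpinb3c (chr1:107278372-107278491): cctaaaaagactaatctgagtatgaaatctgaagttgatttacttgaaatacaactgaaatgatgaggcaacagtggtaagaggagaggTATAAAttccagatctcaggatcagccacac
Serpinb3d (chr1:107083481-107083600): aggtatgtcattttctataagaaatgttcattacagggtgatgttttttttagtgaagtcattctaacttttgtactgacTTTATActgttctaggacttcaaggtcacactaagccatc

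The motif stands 65, 41, 31 and 40 bases before the start site in Serpinb3a, Serpinb3b, Serpinb3c and Serpinb3d. It occurs in the promoters of 7 of the 9 genes, and in 13.6% of 32851 promoters of the same length on either strand. A match is a description of letters, not a site shown to be used.

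In Con keratinocytes the 10 genes spanned a wide range of levels. This ranking compares genes as CPM per kilobase of exon. Sums, shares and ratios further on use CPM without scaling to exon length. Serpinb5, or maspin, a serpin of epithelial cells that does not inhibit proteases in the usual way, was highest, with a median of 303 over the 9 Con libraries (275 to 364). Serpinb3b (72.8, range 67.5 to 95.8), Serpinb12 (72.2, range 61.6 to 105), an inhibitor of trypsin-like proteases, and Serpinb2 (69.1, range 46.5 to 93.5), the urokinase inhibitor known as plasminogen activator inhibitor type 2, followed with overlapping ranges. Next came Serpinb3d (34.7, range 26.0 to 42.6) and Serpinb3a (24.1, range 13.5 to 39.5), which also overlapped. Serpinb11 stood at 14.8 (11.8 to 17.5) and overlapped with Serpinb3a, and Serpinb1a at 6.73 (5.56 to 9.85), below every Serpinb11 value. Serpinb6c, at 5.14 (2.05 to 5.76), overlapped with Serpinb1a, and Serpinb3c, at 0.864 (0 to 1.48), lay below them all. By median Serpinb3b thus came next after Serpinb5, and Serpinb3c came last. The promoter compared for Serpinb3b above covers only 1 start. Its annotated span, with 2 transcripts, reaches to chr1:107278361 on the minus strand, close to the Serpinb3c end at chr1:107278371. Levels were not tested against start regions.

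**Figure D1:**
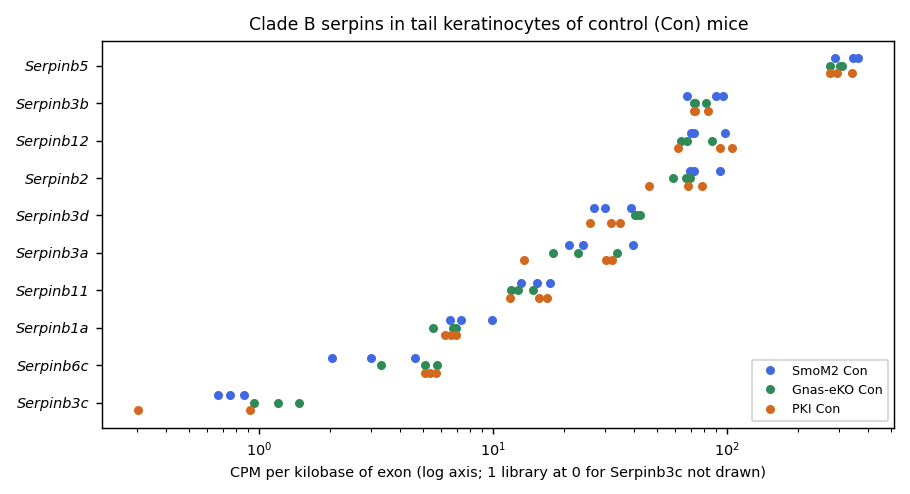
Level of each clade B serpin in the 9 Con libraries, in CPM per kilobase of exon on a log axis, 1 point per library and coloured by model, with genes ordered by their median. Serpinb5 lies between 275 and 364, apart from the others, and Serpinb3c lies at 1.48 or below, with 1 library at 0 that a log axis cannot show.

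The summed level of the 10 genes overlapped between tumours and controls, while single genes moved apart. Summed over the 10 genes, Con had 1584 ± 162 CPM (SD, n = 3) and BCC 1396 ± 42.2 CPM (SD, n = 4) in SmoM2, 1419 ± 10.1 and 1322 ± 393 CPM in Gnas-eKO, and 1466 ± 214 and 1521 ± 168 CPM in PKI. The ranges of Con and BCC overlapped in each model, and the sum was not tested. In SmoM2, 5 of 10 had an adjusted p under 0.05 (edgeR's quasi-likelihood test, Benjamini-Hochberg adjustment over all genes tested), beside 29.7% of all genes. Of these, 3 were higher in BCC (16.2% of all genes were) and 2 lower (13.5%). In PKI, 6 of 10 passed, beside 34.5% of all genes, 5 of them higher (18.7% of all genes) and 1 lower (15.8%). In Gnas-eKO, 0 of 10 passed by edgeR, beside 1.63% of all genes. There 3 of 10 had an unadjusted p under 0.05, and DESeq2's Wald test passed 2 (Serpinb1a and Serpinb11). The share called in Gnas-eKO, 0 of 10, is near the low background of that model. The median log2 fold change of the 10 genes was −0.22 in SmoM2, where that of all genes tested was 0.00054. It was 0.17 against 0.02 in Gnas-eKO, and 0.08 against −0.0012 in PKI. The genes that passed higher in SmoM2, namely Serpinb1a, Serpinb3b and Serpinb3d, are 3 of the 5 that passed higher in PKI, where Serpinb3a and Serpinb3c were added.

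**Figure D2:**
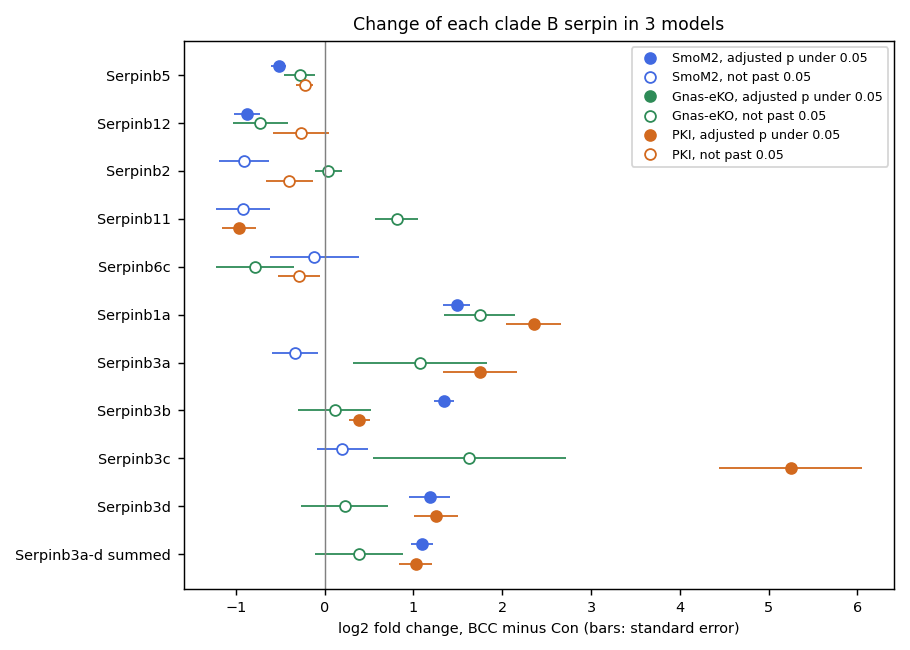
Log2 fold change of BCC against Con for each clade B serpin and for the sum of Serpinb3a to Serpinb3d, in SmoM2, Gnas-eKO and PKI, with 1 standard error to either side and filled points where the edgeR adjusted p was under 0.05. Serpinb5, Serpinb12 and Serpinb6c lie left of 0 in each model and Serpinb1a lies right of it. Serpinb3c in PKI lies farthest right, at 5.25, and the Serpinb11 points of Gnas-eKO and PKI lie on opposite sides of 0.

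The 4 Serpinb3 copies together rose about 2-fold in both SmoM2 and PKI. Their summed level was 224, 275 and 187 CPM in SmoM2 Con and 529, 484, 444 and 476 CPM in SmoM2 BCC. It was 185, 235 and 204 CPM in PKI Con and 445, 533, 298 and 404 CPM in PKI BCC. In both models every BCC library lay above every Con library. Tested as 1 row in place of 4, the SmoM2 sum rose by 1.09 on the log2 scale (SE 0.12; adjusted p 0.000206 in edgeR), a fold of 2.14, and by 1.03 in PKI (SE 0.19; adjusted p 0.00426 in edgeR), a fold of 2.04. The PKI value was 1.01 with an edgeR adjusted p of 0.0508 when all 21 libraries were fitted jointly. The difference between these effects, PKI minus SmoM2, was −0.07 (SE 0.24; adjusted p 0.865 in edgeR). In Gnas-eKO the sum was 202, 215 and 243 CPM in Con and 175, 224, 624 and 123 CPM in BCC. There the groups overlapped, with 1 BCC library above and 2 below all Con libraries, and the log2 fold change was 0.39 (SE 0.49; adjusted p 0.72 in edgeR). Without that high library, BCC replicate 3, it was −0.32.

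The copies that rose differed between these models. Serpinb3b was the most abundant copy and rose most in SmoM2, with 152, 162 and 114 CPM in Con and 381, 356, 343 and 353 CPM in BCC, a log2 fold change of 1.35 (SE 0.11; adjusted p 2.73e-05 in edgeR). In PKI it had 122, 140 and 123 CPM in Con and 160, 202, 142 and 163 CPM in BCC, a log2 fold change of 0.39 (SE 0.12; adjusted p 0.0318 in edgeR). The BCC libraries lay above all Con libraries in both models, but in PKI the nearest libraries were at 140 and 142 CPM. The PKI call was lost without Con replicate 1 (edgeR adjusted p 0.104), without Con replicate 3 (0.107), without BCC replicate 2 (0.0539), and in the joint fit (0.375). In Gnas-eKO, Con had 122, 123 and 137 CPM and BCC 72, 144, 256 and 75.1 CPM, with 2 BCC libraries above and 2 below Con and a log2 fold change of 0.11 (SE 0.41; adjusted p 0.908 in edgeR).

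Serpinb3a passed the threshold in PKI and not in SmoM2. In SmoM2 it had 34.4, 64.5 and 39.3 CPM in Con and 35.2, 26.4, 38.1 and 44.9 CPM in BCC, overlapping groups with a log2 fold change of −0.33 (SE 0.26; adjusted p 0.383 in edgeR). In PKI it had 22, 52.3 and 49.3 CPM in Con and 189, 162, 79.8 and 119 CPM in BCC, all above Con, a log2 fold change of 1.75 (SE 0.42; adjusted p 0.0196 in edgeR). Without the highest of these, BCC replicate 1, the PKI value was 1.55 with an edgeR adjusted p of 0.0502. The gene was at 29.5, 37.6 and 54.9 CPM in Gnas-eKO Con and at 44.0, 31.7, 235 and 29.8 CPM in Gnas-eKO BCC. Only replicate 3 stood above Con there, and the log2 fold change of 1.07 (SE 0.75; adjusted p 0.48 in edgeR) became −0.19 without it.

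Serpinb3c was at 2.46 CPM or less in every library outside PKI BCC, apart from that same Gnas-eKO library. It was at 1.52, 0.505 and 0 CPM in PKI Con, from 30, 8 and 0 estimated counts, and at 23.2, 39.3, 12.4 and 33.4 CPM in PKI BCC. The BCC libraries lay far above Con, with a log2 fold change of 5.25 (SE 0.81; adjusted p 0.00378 in edgeR). Since Con holds so few counts, the size depends on single libraries: it was 6.74 without Con replicate 1 and 4.70 without Con replicate 3, and it passed in all 7 fits that left out 1 library. SmoM2 Con had 1.1, 1.43 and 1.24 CPM and SmoM2 BCC 1.72, 1.64, 1.25 and 1.11 CPM, a log2 fold change of 0.20 (SE 0.29; adjusted p 0.648 in edgeR). Gnas-eKO Con had 1.57, 2.46 and 1.99 CPM and Gnas-eKO BCC 1.02, 1.66, 20.9 and 1.21 CPM. The Gnas-eKO log2 fold change of 1.63 (SE 1.09; adjusted p 0.456 in edgeR) became −0.62 without BCC replicate 3.

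Serpinb3d, the most distant copy, rose in both SmoM2 and PKI. It was at 36.6, 47.1 and 32.8 CPM in SmoM2 Con and at 112, 99.9, 60.7 and 76.7 CPM in SmoM2 BCC, a log2 fold change of 1.18 (SE 0.23; adjusted p 0.008 in edgeR). In PKI it was at 38.9, 42.2 and 31.7 CPM in Con and at 72.9, 130, 64.3 and 87.8 CPM in BCC, a log2 fold change of 1.25 (SE 0.25; adjusted p 0.00694 in edgeR). Every BCC library lay above every Con library in both models, and the difference between the effects was 0.07 (SE 0.36; adjusted p 0.911 in edgeR). In Gnas-eKO, Con had 49.1, 51.8 and 49.7 CPM and BCC 58.4, 46.2, 112 and 17.2 CPM, with a log2 fold change of 0.23 (SE 0.49; adjusted p 0.839 in edgeR).

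The difference between the models was then tested copy by copy. The BCC effect of PKI minus that of SmoM2 was 2.08 for Serpinb3a (SE 0.51; adjusted p 0.0129 in edgeR), −0.95 for Serpinb3b (SE 0.17; adjusted p 0.00134 in edgeR) and 5.05 for Serpinb3c (SE 0.87; adjusted p 0.00162 in edgeR), the last being 6.54 without PKI Con replicate 1 and 4.495 without PKI Con replicate 3. These were 3 of 10 genes, where 24.9% of all genes passed, so the share is near the background. In the joint fit of 21 libraries 1 of the 10 passed, Serpinb3c, while Serpinb3a had an edgeR adjusted p of 0.108 and Serpinb3b of 0.133. As a description, the part of Serpinb3b in the summed copies went from 62.5% ± 4.69 (SD, n = 3 Con) to 74.3% ± 2.30 (SD, n = 4 BCC) in SmoM2. In PKI its part went the other way, from 62.0% ± 3.61 to 40.5% ± 5.08. Serpinb3a held 19.9% ± 4.16 in SmoM2 Con and 7.54% ± 1.82 in SmoM2 BCC, against 19.5% ± 6.59 in PKI Con and 32.2% ± 6.95 in PKI BCC. Serpinb3c went from 0.346% ± 0.427 to 6.25% ± 1.90 in PKI. The ratio of Serpinb3a to Serpinb3b ran from 0.180 to 0.401 in PKI Con and from 0.562 to 1.18 in PKI BCC, and from 0.227 to 0.399 in SmoM2 Con and from 0.0740 to 0.127 in SmoM2 BCC. In Gnas-eKO it ran from 0.242 to 0.402 in Con and from 0.220 to 0.918 in BCC. The BCC libraries of SmoM2 and PKI therefore lay on opposite sides of all their Con libraries, and those of Gnas-eKO overlapped with Con.

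**Figure D3:**
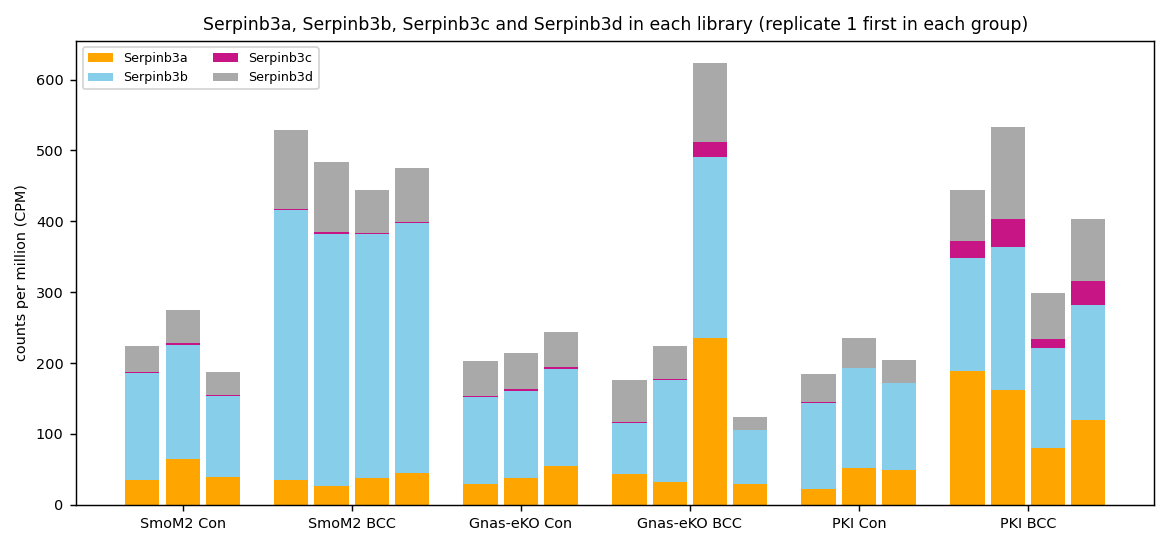
CPM of Serpinb3a, Serpinb3b, Serpinb3c and Serpinb3d stacked for each of the 21 libraries, replicate 1 first in each group. The stacks of SmoM2 BCC (444 to 529) and PKI BCC (298 to 533) stand above their Con stacks, with Serpinb3b filling most of the former and Serpinb3a and Serpinb3c a larger part of the latter. Gnas-eKO BCC replicate 3 (624) stands apart from its group.

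How the counting divided reads among the copies is not given in the sources used here. The annotated span of Serpinb3b (GRCm38 chr1:107153940-107278361, minus strand) contains nearly all of Serpinb3c (chr1:107271201-107278371, minus strand), with 35 shared exon bases. Serpinb3a lies at chr1:107045587-107052303 and Serpinb3d at chr1:107078167-107083506, both on the minus strand. Values of single copies are uncertain to the extent that shared stretches were assigned to one or the other. The summed row avoids shifts among the copies only, and reads dropped or given to other genes would still be missing from it. The pseudogene Gm8084 overlaps the Serpinb3b span on the same strand, with 0 shared exon bases. Among the deposited values of the 10 genes 53.3% are not whole numbers, against 33.1% in the whole table. Of the wound and stress genes of keratinocytes, 15 of the 17 tested passed higher in PKI, 4 of 16 in SmoM2 (1 lower) and 0 of 16 in Gnas-eKO. Their summed level was 2180 to 2235 CPM in PKI Con and 13267 to 29608 CPM in PKI BCC, 2293 to 3703 and 7107 to 11760 CPM in SmoM2, and 2452 to 3289 and 3090 to 11504 CPM in Gnas-eKO. In Gnas-eKO BCC replicates 1 to 4 the wound sum was 7568, 3090, 11504 and 9068 CPM, beside Serpinb3 sums of 175, 224, 624 and 123 CPM. The part of the wound genes in the Serpinb3 changes was not tested.

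Serpinb1a, which inhibits neutrophil serine proteases such as elastase and is known from white blood cells as well as epithelium, was the member whose estimate was above 1 on the log2 scale in each model. In SmoM2 it had 22.7, 16.8 and 15.1 CPM in Con and 51.8, 48.7, 58.3 and 43.8 CPM in BCC, a log2 fold change of 1.49 (SE 0.15; adjusted p 0.000108 in edgeR). In PKI it had 14.3, 15.2 and 16.0 CPM in Con and 121, 67.8, 70.6 and 48.3 CPM in BCC, a log2 fold change of 2.35 (SE 0.31; adjusted p 0.00146 in edgeR). Con and BCC did not overlap in either. Gnas-eKO Con had 15.5, 12.8 and 15.9 CPM and Gnas-eKO BCC 40.9, 19.4, 66.6 and 69.8 CPM, again without overlap, and the log2 fold change of 1.75 (SE 0.40; adjusted p 0.0703 in edgeR) missed the threshold. It passed with DESeq2's Wald test (adjusted p 0.000339), in the joint fit (edgeR adjusted p 0.0029), and without BCC replicate 2, the library at 19.4 CPM (2.01, edgeR adjusted p 0.00187). Over the 7 fits that left out 1 library the Gnas-eKO value ran from 1.53 to 2.01, with edgeR adjusted p up to 0.277. PKI minus SmoM2 was 0.87 (SE 0.35; adjusted p 0.0918 in edgeR). It passed with DESeq2's Wald test (adjusted p 0.0384) and without PKI BCC replicate 4 (1.04, edgeR adjusted p 0.0223). It was 0.56 without PKI BCC replicate 1 and did not pass, and the edgeR adjusted p went up to 0.215 without SmoM2 Con replicate 1.

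Markers of white blood cells moved with Serpinb1a in PKI. In bulk RNA, fewer or more cells of a type and less or more RNA per cell cannot be told apart. The 7 macrophage markers summed to 4.80 to 12.4 CPM in PKI Con and 29.0 to 57.9 CPM in PKI BCC, and 6 of 7 passed higher. In SmoM2 they summed to 9.52 to 9.83 CPM in Con and 10.4 to 16.0 CPM in BCC, with 1 of 3 tested higher, and in Gnas-eKO to 10.9 to 12.6 and 13.0 to 29.3 CPM, with 0 of 3. Langerhans cell markers passed higher in 6 of 6 in PKI (126 to 261 CPM against 513 to 961 CPM), in 1 of 6 in SmoM2 (212 to 269 against 280 to 356) and in 0 of 6 in Gnas-eKO (226 to 305 against 327 to 785). Epcam, which epithelial cells also make, is the gene that passed in SmoM2 (115.8 to 194 CPM on average) and had the largest part of the sum there. Cd207, the defining Langerhans gene, was at −0.65 in SmoM2 (edgeR adjusted p 0.374), 0.0052 in Gnas-eKO (edgeR adjusted p 0.998) and 1.95 in PKI (edgeR adjusted p 0.00237). Of the 8 neutrophil markers 4 were in the table, Ly6g, Mmp8, Retnlg and Ngp not being analysed here. Their sum, made up largely of S100a8 and S100a9, which keratinocytes also make and which are in the wound list too, was 2.40 to 13.6 CPM in PKI Con and 912 to 3574 CPM in PKI BCC, 15.1 to 101 and 383 to 1013 CPM in SmoM2, and 15.0 to 74.5 and 54.8 to 1995 CPM in Gnas-eKO. Cxcr2, a receptor of neutrophils, was at 2.23 CPM in PKI Con and 8.28 CPM in PKI BCC on average (edgeR adjusted p 0.00887), at 2.81 and 1.93 CPM in SmoM2 (edgeR adjusted p 0.374), and at 2.78 and 1.86 CPM in Gnas-eKO (edgeR adjusted p 0.616). No macrophage or Langerhans marker was at 0 across a group. T cell markers passed higher in 5 of 6 in PKI (15.0 to 20.4 CPM summed in Con, 32.9 to 52.3 CPM in BCC), in 0 of 4 in SmoM2 (9.84 to 13.6 and 9.68 to 13.1 CPM) and in 0 of 5 in Gnas-eKO (12.7 to 14.4 and 12.0 to 43.6 CPM, the highest in BCC replicate 3). The part of these lists in the Serpinb1a values was not tested.

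Keratinocyte lists moved in the same comparisons. Of 11 hair follicle genes, 9 were higher and 1 (Krt24) lower in PKI, with a summed level of 2455 to 2996 CPM in Con and 3624 to 4555 CPM in BCC. Krt71, a keratin of the inner root sheath, averaged 26.1 CPM in PKI Con and 601 CPM in PKI BCC. In SmoM2, 3 of the 11 were higher and 1 lower, and in Gnas-eKO 1 was higher. Of the 7 basal keratinocyte markers, 5 were lower and 1 (Trp63) higher in SmoM2, with sums of 31088 to 40143 CPM in Con and 23304 to 25190 CPM in BCC, 4 were lower in PKI, and 0 passed in Gnas-eKO. The sums were 34884 to 39836 CPM in PKI Con and 29470 to 32017 CPM in PKI BCC, and 36527 to 39769 and 16608 to 33600 CPM in Gnas-eKO, so that every BCC library lay below every Con library in each model, a difference in sums that was not tested. Their part in the serpin values was not tested.

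**Figure D4:**
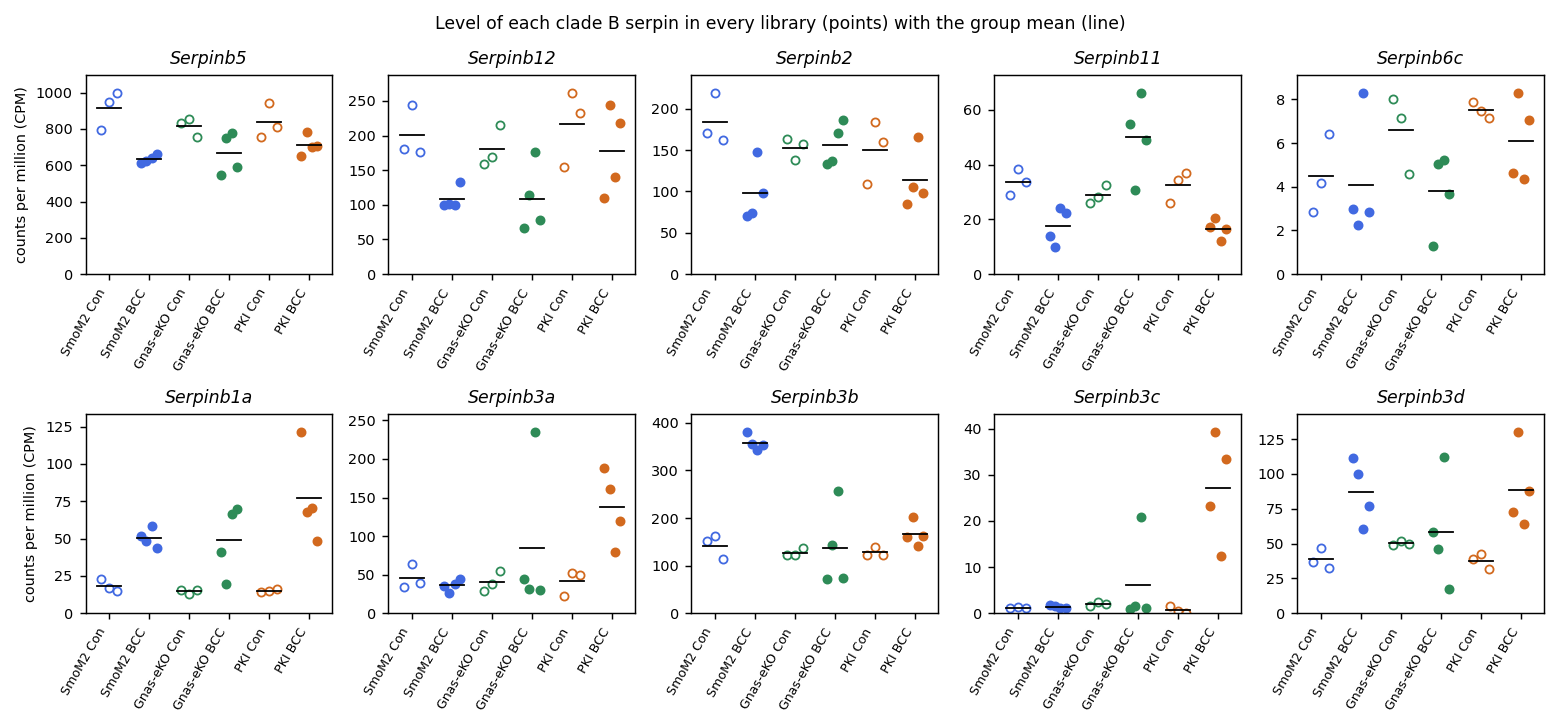
CPM of each of the 10 clade B serpins in every library, on linear axes from 0, with Con as open points, BCC as filled points and the group mean as a line. Serpinb11 in PKI BCC (11.9 to 20.4) lies below all PKI Con libraries, while in Gnas-eKO BCC (30.8 to 66.2) 3 of 4 libraries lie above Con and 1 within its range. Single high points in Gnas-eKO BCC stand out for Serpinb3a and Serpinb3c.

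Serpinb5 and Serpinb12 fell in SmoM2. Serpinb5 was at 795, 949 and 1000 CPM in SmoM2 Con and at 611, 625, 638 and 663 CPM in SmoM2 BCC, without overlap, a log2 fold change of −0.51 (SE 0.08; adjusted p 0.00158 in edgeR). In Gnas-eKO it was at 833, 854 and 758 CPM in Con and at 544, 753, 778 and 591 CPM in BCC (log2 fold change −0.28, edgeR adjusted p 0.407, SE 0.17). In PKI it was at 757, 943 and 808 CPM in Con and at 649, 785, 700 and 706 CPM in BCC (log2 fold change −0.22, edgeR adjusted p 0.112, SE 0.10). In both of these models 3 of 4 BCC libraries lay below all Con libraries. PKI minus SmoM2 was 0.29 (SE 0.13; adjusted p 0.121 in edgeR), and it passed without SmoM2 Con replicate 1 (0.38, edgeR adjusted p 0.041) or without PKI Con replicate 2 (0.39, edgeR adjusted p 0.0488), while other libraries left out gave values down to 0.22 and edgeR adjusted p up to 0.268.

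Serpinb12 was at 180, 245 and 176 CPM in SmoM2 Con and at 99.4, 102, 100.4 and 133 CPM in SmoM2 BCC, all below Con, a log2 fold change of −0.87 (SE 0.15; adjusted p 0.00277 in edgeR). In Gnas-eKO it had 159, 169 and 215 CPM in Con and 66.6, 115, 177 and 77.7 CPM in BCC (log2 fold change −0.72, edgeR adjusted p 0.248, SE 0.31), with 3 of 4 BCC libraries below Con. In PKI the groups overlapped, at 154, 262 and 232 CPM in Con and 110, 245, 140 and 218 CPM in BCC (log2 fold change −0.27, edgeR adjusted p 0.557, SE 0.32). That value ran from −0.47 without BCC replicate 2 or Con replicate 1 to −0.10 without BCC replicate 1, and did not pass in any of these fits. The fall past the threshold was thus in SmoM2, and the differences between models did not pass (PKI minus SmoM2 0.60, SE 0.38, edgeR adjusted p 0.269).

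Serpinb2 had 170, 220 and 162 CPM in SmoM2 Con and 70.4, 73.3, 148 and 98.2 CPM in SmoM2 BCC, all below Con, with a log2 fold change of −0.90 (SE 0.28; adjusted p 0.0544 in edgeR). This missed the threshold, and it passed with DESeq2's Wald test (adjusted p 0.0238), in the joint fit (edgeR adjusted p 0.0124), with limma on the authors' normalized values (adjusted p 0.0414) and without BCC replicate 3 (−1.17, edgeR adjusted p 0.00234). With 1 library left out the SmoM2 value ran from −1.17 to −0.76, with edgeR adjusted p up to 0.148. In Gnas-eKO the groups overlapped at 138 to 164 CPM in Con and 133 to 186 CPM in BCC (log2 fold change 0.04, edgeR adjusted p 0.902, SE 0.15). In PKI, Con had 109, 184 and 159 CPM and BCC 84.6, 105, 165 and 98.6 CPM (log2 fold change −0.40, edgeR adjusted p 0.285, SE 0.26), and the value was −0.63 with an edgeR adjusted p of 0.043 without BCC replicate 3 and −0.23 with an edgeR adjusted p of 0.59 without Con replicate 2. The difference between Gnas-eKO and SmoM2 was 0.95 (SE 0.32; adjusted p 0.343 in edgeR). Serpinb2 (chr1:107511423-107535478, plus strand) shares 291 exon bases with Serpinb10 on the same strand, so its counts are uncertain to that extent.

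Serpinb11, whose mouse protein inhibits trypsin-like proteases, fell in PKI and had its Gnas-eKO estimate on the other side of 0. In PKI it was at 25.9, 34.4 and 37.1 CPM in Con and at 17.4, 20.4, 11.9 and 16.5 CPM in BCC, all below Con, a log2 fold change of −0.96 (SE 0.19; adjusted p 0.0051 in edgeR). In Gnas-eKO it was at 25.9, 28.0 and 32.4 CPM in Con and at 54.6, 30.8, 66.2 and 48.9 CPM in BCC, with 3 of 4 BCC libraries above Con and a log2 fold change of 0.81 (SE 0.24; adjusted p 0.118 in edgeR). Without the remaining library, BCC replicate 2, the Gnas-eKO value was 0.99 (edgeR adjusted p 0.00656), and it also passed with DESeq2's Wald test (adjusted p 0.0264). With other libraries left out it went down to 0.65, with edgeR adjusted p up to 0.357. The effect of PKI minus that of Gnas-eKO was −1.77 (SE 0.33; adjusted p 0.00716 in edgeR). It passed in each of the 14 fits that left out 1 library, with edgeR adjusted p from 0.00106 to 0.026. Serpinb11 was the 1 gene of 10 to pass in that comparison, where 9.06% of all genes did (673 to 2512 genes when 1 library was left out, against 1564).

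In SmoM2 the gene lay on the same side of 0 as in PKI. Serpinb11 had 28.7, 38.3 and 33.5 CPM in SmoM2 Con and 13.8, 9.80, 24.2 and 22.4 CPM in SmoM2 BCC, all below Con, with a log2 fold change of −0.92 (SE 0.31; adjusted p 0.0616 in edgeR). It passed with DESeq2's Wald test (adjusted p 0.00326), in the joint fit (edgeR adjusted p 0.0179), without BCC replicate 2 (edgeR adjusted p 0.0464) and without BCC replicate 3 (edgeR adjusted p 0.0351). With other libraries left out the edgeR adjusted p went up to 0.17. PKI minus SmoM2 was −0.04 (SE 0.39; adjusted p 0.954 in edgeR). Gnas-eKO minus SmoM2 was 1.73 (SE 0.41; adjusted p 0.15 in edgeR), which did not pass, and passed without Gnas-eKO BCC replicate 2 (1.90, edgeR adjusted p 0.0409) and with DESeq2's Wald test (adjusted p 0.00567). In that last comparison 0 of 10 genes passed by edgeR, beside 0.175% of all genes, 3 of 10 had an unadjusted p under 0.05, and DESeq2 passed 1.

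Serpinb6c, a low-level gene on chromosome 13, had no change past the threshold. It ranged from 2.85 to 6.44 CPM in SmoM2 Con and 2.27 to 8.29 CPM in SmoM2 BCC (log2 fold change −0.11, edgeR adjusted p 0.894, SE 0.50), and the SmoM2 value was −0.71 to 0.24 when 1 library was left out. The ranges were 4.60 to 8.01 and 1.29 to 5.24 CPM in Gnas-eKO (log2 fold change −0.78, edgeR adjusted p 0.367, SE 0.44) and 7.15 to 7.90 and 4.36 to 8.31 CPM in PKI (log2 fold change −0.29, edgeR adjusted p 0.381, SE 0.24). Its groups overlapped in each model.

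The genes that fell did so beside genes of terminal differentiation. Of the 18 differentiation genes tested, 12 were lower and 0 higher in SmoM2, 1 lower and 0 higher in Gnas-eKO, and 6 lower and 1 higher (Krt1) in PKI. Their summed level was 43409 to 64713 CPM in SmoM2 Con and 22047 to 35833 CPM in SmoM2 BCC, 40724 to 50619 and 20527 to 34717 CPM in Gnas-eKO, and 36586 to 60153 and 16979 to 50496 CPM in PKI. Flg2 (−2.47) and Krt2 (−1.80) fell most in SmoM2, and Hrnr (−2.72) and Krt2 (−2.37) in PKI. No gene of the list was at 0 in any group. Of the 6 fibroblast markers tested, 2 passed higher in SmoM2 (Dcn and Col1a2), 1 in Gnas-eKO (Dcn) and 3 in PKI (Dcn, Col3a1 and Lum), with 0 lower. Their summed level, most of it Dcn, was 17.2–39.8 CPM in Con and 387–525 CPM in BCC in SmoM2, 15.9–27.7 and 94.6–579 CPM in Gnas-eKO, and 15.9–43.6 and 84.7–145 CPM in PKI. In SmoM2, Col1a1 (0.36, edgeR adjusted p 0.575) and Col3a1 (−0.07, edgeR adjusted p 0.955) did not pass. The part of either list in the serpin values was not tested.

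Other clade B genes of the same cluster were also lower in SmoM2 and PKI. On chromosome 1, 12 clade B genes of the mouse lie within 749.3 kb (chr1:106861173-107610484) in the order Serpinb5, Serpinb12, Serpinb13, Serpinb3a, Serpinb3d, Serpinb3b, Serpinb3c, Serpinb11, Serpinb7, Serpinb2, Serpinb10 and Serpinb8. Of the 8 other clade B serpins tested in SmoM2, 2 were higher, among them Serpinb9 (2.31), which inhibits granzyme B, and 4 were lower: Serpinb7 (−2.39), Serpinb13 (−2.24), Serpinb10 (−1.67) and Serpinb8 (−0.29). In PKI 0 of 10 were higher and 3 lower, Serpinb7 (−3.43), Serpinb10 (−1.04) and Serpinb8 (−0.54), while Serpinb13 was at −1.08 (edgeR adjusted p 0.0645). In Gnas-eKO 0 of 9 passed. In SmoM2 and PKI, every gene of the cluster that passed higher is one of the 4 Serpinb3 copies in the middle of the cluster, and the genes to either side passed lower or did not pass. Of the summed CPM of the 21 clade B serpins in the table, the 10 members made up 73.9% to 79.8% in the 9 Con libraries, 84.1% to 85.1% in SmoM2 BCC, 83.9% to 87.6% in PKI BCC and 74.3% to 84.0% in Gnas-eKO BCC. The SmoM2 and PKI tumour libraries lay above all Con libraries in this share, and those of Gnas-eKO overlapped with them. The other 11 clade B serpins summed to 423 to 511 CPM in SmoM2 Con and 237 to 269 CPM in SmoM2 BCC, 434 to 443 and 221 to 267 CPM in PKI, and 423 to 486 and 278 to 444 CPM in Gnas-eKO. The higher share in SmoM2 and PKI thus went with a lower sum of the other 11, while the sum of the 10 members overlapped with Con. All 21 together were at 1846 to 2189 CPM in SmoM2 Con and 1582 to 1702 CPM in SmoM2 BCC, without overlap, and overlapped in Gnas-eKO and PKI; these sums were not tested.

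**Figure D5:**
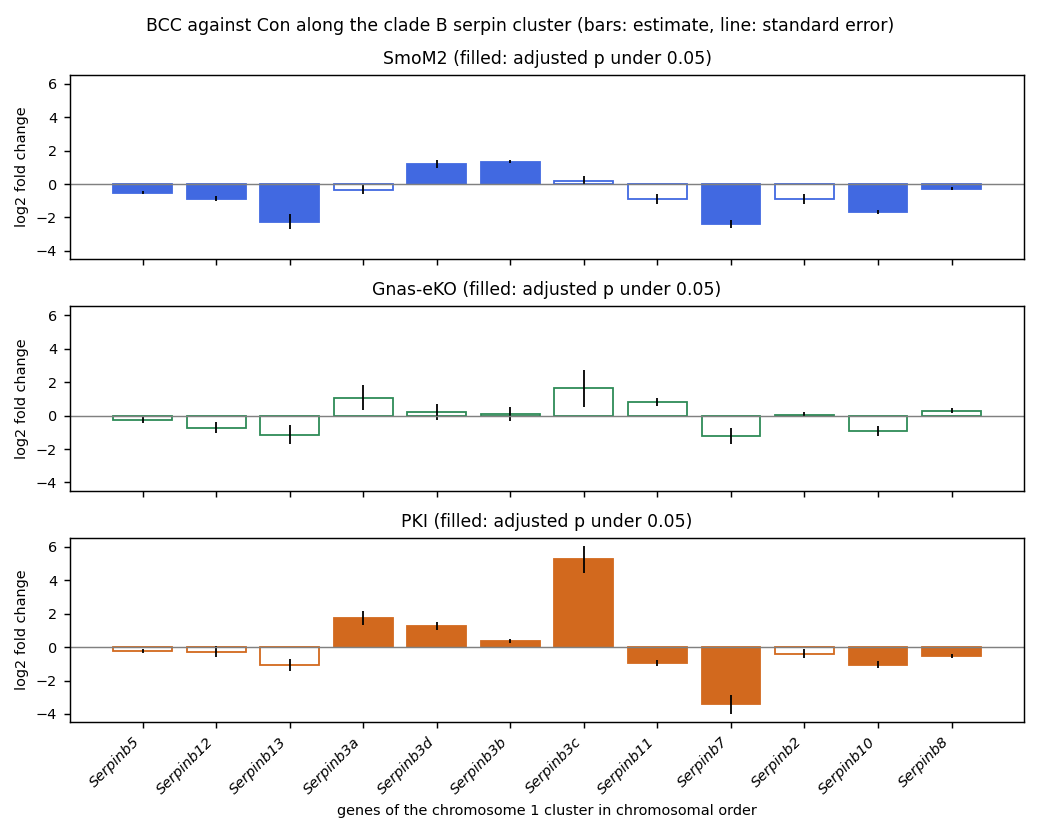
Log2 fold change of BCC against Con (bars, with 1 standard error) for the clade B serpins of chromosome 1 in chromosomal order, 1 panel per model on a shared axis, filled where the edgeR adjusted p was under 0.05. In SmoM2 and PKI, filled bars above 0 belong to Serpinb3 copies, from 0.39 for Serpinb3b to 5.25 for Serpinb3c in PKI, and Serpinb7 has the lowest bars (−2.39 and −3.43).

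Serpins of other clades and the proteases that clade B serpins are known to inhibit were counted for comparison. Of other serpins, 5 of 15 were higher and 0 lower in SmoM2, with Serpina3i (4.45) and Serpina3h (2.38) the highest, and 0 of 14 passed in Gnas-eKO. In PKI 1 of 13 was higher and 3 were lower, with Serpina12 (−2.62) the lowest. Of the protease list, 13 of 24 genes were higher and 1 lower in PKI. In SmoM2 5 of 23 were higher and 3 lower, and in Gnas-eKO 1 (Plat, 1.28) of 25 was higher. The list also holds Plaur, the urokinase receptor, which is not a protease and passed higher in SmoM2 (4.14). The counts are therefore not of proteases alone. In PKI the rises included cathepsins, lysosomal cysteine proteases, of which Serpinb3 relatives are known to inhibit some, such as cathepsins L and S: Ctss (3.27), Ctsc (2.15), Ctsz (1.57), Ctsb (0.72), Ctsl (0.39) and Ctsh (0.33). In SmoM2, Ctsz rose (1.48), Ctsh fell (−0.47) and the other 4 did not pass. Plau, the urokinase that Serpinb2 inhibits, fell in SmoM2 (−0.64) and was at 0.21 in PKI (edgeR adjusted p 0.211). The kallikreins Klk6 (2.24) and Klk10 (1.22) rose in PKI, and Klk5 (−1.41) fell in SmoM2. Ctss is also known from antigen-presenting cells, whose markers are given above.

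Promoters were also searched for letters bound by factors of interest. The AP-1 consensus, TGACTCA or TGAGTCA on the other strand, was in 0 of the 9 promoters and in 5.20% of 32851 promoters. The looser letters TGANTCA were in 4 of the 9 (Serpinb2, Serpinb5, Serpinb11 and Serpinb12) and in 7.81% of all, and in these 4 the middle base was A or T, which is outside the consensus. The GLI motif GACCACCCA, the letters bound by the Hedgehog pathway's transcription factors, was in 0 of the 9 promoters and in 0.253% of all promoters. The cAMP response element TGACGTCA was also in 0 of 9, against 1.79% of all, both on either strand. These counts say only which letters these windows hold.

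Across the 21 libraries the members fell into loose groups, given here as a description, since the points share models, batches and the contrast of Con and BCC. Over log2 CPM, Serpinb5 and Serpinb12 had a Pearson r of 0.83, Serpinb3a and Serpinb3c 0.75, Serpinb3b and Serpinb3d 0.70, and Serpinb2 and Serpinb11 0.69. The lowest were Serpinb1a with Serpinb5 (−0.69) and Serpinb2 with Serpinb3d (−0.63). The copies thus paired as Serpinb3a with Serpinb3c and Serpinb3b with Serpinb3d, which is not the order of their coding or promoter identity. Among 12021 other genes, the most similar to each member were Tmsb10 for Serpinb1a (0.95), Blmh for Serpinb3a (0.95), Abhd5 for Serpinb5 (0.94), Pla2g4f for Serpinb12 (0.94), Arhgap40 for Serpinb11 (0.90), Krt27, one of the hair follicle genes, for Serpinb3c (0.89), Actr3-ps for Serpinb3b (0.85), Tmem43 for Serpinb2 (0.85), Mgat5b for Serpinb3d (0.79) and Gm14388 for Serpinb6c (0.77). Ctsc, the cathepsin that rose in PKI, came next but one for Serpinb3c (0.88).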

How the data were processed

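Polyadenylated RNA of tail keratinocytes was sequenced from 21 libraries (3 Con and 4 BCC in each of SmoM2, Gnas-eKO and PKI), with a stranded mRNA ligation kit, per the labels' protocols. The submitters' processing notes name bcl2fastq 2.20, cutadapt 1.18, STAR 2.7.0f, Partek and the mouse build mm10, with no role or order. The counting method, its annotation and its use of strand are not given in the sources used here. The counts the authors deposited are estimated counts for each gene, not normalized, of which 33.1% are not whole, and no gene has fewer than 10 counts in all. A table the authors deposited as normalized holds a signal, each count times a factor per library plus 0.001, and was used for 1 alternative. Gene lengths the authors deposited were not used.

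Counts were rounded, and edgeR 4.0.16 (R 4.3.3) was used. Genes were filtered by filterByExpr, libraries scaled by TMM, and BCC compared with Con in the 7 libraries of a model by the robust quasi-likelihood test, with Benjamini-Hochberg adjustment over all genes tested and a threshold of 0.05. Differences between models were tested as interaction contrasts on 14 libraries. The sum of Serpinb3a to Serpinb3d replaced the 4 rows in a separate fit. Standard errors are the log2 fold change divided by the root of F. Exon lengths came from GENCODE M21, promoters from RefSeq. The scripts were tested on simulated counts. Library totals were 16645858 to 22251132, and libraries of a group differed by more than sampling noise (lowest chi-square 8.93 for each degree of freedom).

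All 10 genes are reported in every model. Other clade B serpins are named where called at a mean log2 CPM of 0 or more, and of each other list up to 4 examples with the highest or lowest changes at a mean log2 CPM of 2 or more; the cathepsins, Plau, Plat, Klk5, Klk10 and Cxcr2 were named after their values were seen. For likeness, candidates had a mean log2 CPM (prior count 2) of 2 or more. Some results for genes of the comparison lists are not reported here. The genes, lists and tests were chosen with earlier results of these data known. Alternatives were DESeq2 1.42.0 size factors, its Wald test, no filter, a joint fit of all libraries, limma 3.58.1 on log2 of the authors' signal plus 0.5, the replicate number as a block, and leaving out each library.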

Additional observations from a re-analysis of the deposited data

Results flagged for a closer look

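Among the 33 groups of 4 BCC libraries (the 10 genes and the Serpinb3 sum in 3 models), 4 held a library far from its group by Dixon's test, where chance gives about 1 in 20. Gnas-eKO BCC replicate 3 had 235 CPM of Serpinb3a, with the other 3 libraries at 29.8 to 44.0 CPM, and 20.9 CPM of Serpinb3c, with the others at 1.02 to 1.66 CPM. SmoM2 BCC replicate 3 had 8.29 CPM of Serpinb6c, with the others at 2.27 to 2.98 CPM. SmoM2 BCC replicate 4 had 133 CPM of Serpinb12, with the others at 99.4 to 102 CPM.

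The BCC effect differed between PKI and SmoM2 by edgeR's interaction test for Serpinb3a (2.08), Serpinb3b (−0.95) and Serpinb3c (5.05), and between PKI and Gnas-eKO for Serpinb11 (−1.77). In Gnas-eKO BCC replicate 3, keratinocyte wound genes summed to 11504 CPM, against 3090 to 9068 CPM in the other 3 libraries. The neutrophil list summed to 1995 CPM there, nearly all of it from S100a8 (894 CPM) and S100a9 (1099 CPM), which are part of the wound sum too. Cxcr2, a neutrophil gene outside the wound list, was at 1.69 to 4.41 CPM in Gnas-eKO Con and at 0.677 to 3.19 CPM in Gnas-eKO BCC. Its means were 2.78 and 1.86 CPM (edgeR adjusted p 0.616), over all libraries of each group and not replicate 3 alone. T cell markers summed to 43.6 CPM in replicate 3, against 12.0 to 18.9 CPM in the other 3 libraries. Their part in the Serpinb3 values of that library was not tested.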

How the results depend on the processing

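Counts of the 10 genes called were within 1.5 times of the reported ones in SmoM2 (5 to 7) and PKI (5 to 7) under every alternative run. In Gnas-eKO 0 became 2 with DESeq2's Wald test and 1 in the joint fit, with 0 to 2 when 1 library was left out. Gnas-eKO against SmoM2 gave 1 with DESeq2 and 0 to 1 with 1 library left out, PKI against SmoM2 gave 1 in the joint fit, and PKI against Gnas-eKO gave 1 to 3 with 1 library left out. The 3 were reached without Gnas-eKO BCC replicate 3, where Serpinb3a (1.95, edgeR adjusted p 0.0337) and Serpinb3c (5.89, edgeR adjusted p 0.00353) passed too. The summed Serpinb3 change in PKI was 1.01 (edgeR adjusted p 0.0508) in the joint fit. Over all genes, Gnas-eKO calls went from 267 to 1535 with DESeq2, 2644 in the joint fit and 135 with the block, and from 0 to 1910 with 1 library left out. Gnas-eKO against SmoM2 went from 30 to 212 with DESeq2 and 66 in the joint fit, and PKI against Gnas-eKO from 1564 to 2389 with DESeq2 and 925 with the block. Leaving out 1 library gave 14 to 79 calls for Gnas-eKO against SmoM2 (lowest without SmoM2 Con replicate 2, highest without Gnas-eKO BCC replicate 2) and 673 to 2512 for PKI against Gnas-eKO (lowest without Gnas-eKO Con replicate 2, highest without Gnas-eKO BCC replicate 3), with 9 and 7 of the 14 fits over 1.5 times away.

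Directions that turned belonged to values not past the threshold. With limma on the authors' values, Gnas-eKO Serpinb3b was −0.10 and Serpinb3d −0.070. Leaving out 1 library gave ranges across 0 in Gnas-eKO for Serpinb2 (−0.047 to 0.12), Serpinb3a (−0.19 to 1.36), Serpinb3b (−0.38 to 0.33), Serpinb3c (−0.62 to 1.99), Serpinb3d (−0.29 to 0.54) and the Serpinb3 sum (−0.32 to 0.64), and in SmoM2 for Serpinb6c (−0.71 to 0.24). Between models they were, for Gnas-eKO minus SmoM2, Serpinb12 (−0.18 to 0.33) and Serpinb3c (−0.82 to 1.79), for PKI minus SmoM2, Serpinb11 (−0.24 to 0.15), Serpinb3d (−0.17 to 0.21) and Serpinb6c (−0.53 to 0.43), and for PKI minus Gnas-eKO, Serpinb5 (−0.033 to 0.16). Values of other genes short of the threshold moved by over 1.5 times without turning, such as SmoM2 Serpinb3a (−0.51 to −0.013), PKI Serpinb5 (−0.30 to −0.13) and PKI Serpinb6c (−0.49 to −0.15). The causes were not tested.

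The deviations of Con and BCC libraries with the same number had a mean correlation of −0.10 for SmoM2, 0.09 for Gnas-eKO and 0.11 for PKI, and 4 of 9 Con libraries correlated best with their own number, so the libraries share only a number. Blocking on the replicate number called 5, 0 and 6 of the 10 genes in SmoM2, Gnas-eKO and PKI, and 0, 2 and 1 in Gnas-eKO against SmoM2, PKI against SmoM2 and PKI against Gnas-eKO. In PKI, Serpinb3a (edgeR adjusted p 0.187) then did not pass and Serpinb12 (edgeR adjusted p 0.0299) did, and Serpinb3a did not pass between PKI and SmoM2 (edgeR adjusted p 0.113). Values that turned under the block were Gnas-eKO Serpinb2 (−0.052), Serpinb1a in Gnas-eKO minus SmoM2 (−0.19), and Serpinb3d (−0.012) and Serpinb11 (0.16) in PKI minus SmoM2. Depth limits Serpinb3c in Con, at 0 to 44 estimated counts, more than the other genes.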
